A study of Mus musculus with 21 samples.

Results

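The 10 genes examined here mark astrocytes and radial glia: Gfap, Aqp4, Aldh1l1, Slc1a2, Slc1a3, S100b, Aldoc, Glul, Gja1 and Fabp7. They were chosen by symbol, with earlier results of these data known, and all 10 were among the 24391 gene symbols counted in each library. The question was how strongly these genes were expressed in the brain at birth, how much they varied between wild-type (WT) brains, and whether they differed between brains of Jak1 knock-in (KI) and WT mice. RNA was sequenced from the brain, liver and skin of 2 KI and 5 WT newborns, 21 libraries in all, 1 per mouse and tissue. Liver and skin served as the baseline.

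All mice were C57BL/6 and were taken at P0, the day of birth. The KI mice were heterozygous (Jak1 KI +/-). Their edited allele carried H595D, which replaces a histidine of the kinase JAK1 by aspartic acid, together with the silent changes I596I and Y597Y, so their genotype was Jak1 H595D/+;I596I/+;Y597Y/+. The edit is in the germ line, so every tissue carried it and no promoter or Cre line limits it to glia. According to the study's methods the KI line was kept through a mosaic male, because heterozygotes die young. The WT mice carried no edit, and mice with the silent changes alone were not analysed here. Litter and sex are not given in the labels, so the p-values below measure the spread between these 7 mice.

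Radial glia are the progenitors that line the ventricles of the embryonic brain. They first make neurons and, around birth, turn to making astrocytes, the cells that take up glutamate, buffer ions and water and feed neurons. Cytokines of the leukemia inhibitory factor and ciliary neurotrophic factor family drive part of this switch: they bind receptors that share gp130, activate JAK1 and through it STAT3, and STAT3 binds the Gfap promoter. Fabp7 belongs to the radial glial stage, Slc1a3 and Aldoc span both stages, and Gfap, Aqp4, S100b and Slc1a2 rise as astrocytes mature.

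The STAT recognition letters TTCNNNGAA were searched because this pathway is the one the edit touches. The letters read the same on both strands. Transcription starts were taken from RefSeq, whose table is on GRCm38.p6. Each start was then placed in NCBIM37 (mm9), the build used for the counts, by an exact match of its 300-base window. Such a window, 250 bases before to 50 after the start, was at hand for 9 of the 10 genes, Aqp4 excepted. It held the letters in 2 of the 9, Gfap and Slc1a3, and in 8.18% of 17215 promoters. In the 2000 bases before the start they occurred in 7 of the 9, Slc1a2 and S100b excepted, and in 48.8% of 15035 such stretches. In those 2000 bases Gfap held them at positions -1914 and -1446, with the first transcribed base as position 0. A further Gfap match began at position -2 and ran across the start. Shown here are the Gfap match at -1446, because Gfap is the STAT3 target of the group, the matches near the Gfap and Slc1a3 starts, and the one before Fabp7, the member with the largest difference between genotypes in the brain. Capitals mark TTCNNNGAA, and all 4 sequences run 5′ to 3′ on the strand of the gene.
Gfap, chr11:102759905-102760014, minus strand: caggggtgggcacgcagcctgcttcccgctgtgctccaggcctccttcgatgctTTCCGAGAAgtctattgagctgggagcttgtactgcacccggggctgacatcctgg
Gfap, chr11:102758508-102758574, minus strand: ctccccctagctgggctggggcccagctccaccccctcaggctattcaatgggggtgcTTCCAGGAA
Slc1a3, chr15:8660848-8660947, minus strand: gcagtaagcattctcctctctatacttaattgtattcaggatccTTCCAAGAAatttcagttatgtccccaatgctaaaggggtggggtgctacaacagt
Fabp7, chr10:57504019-57504118, plus strand: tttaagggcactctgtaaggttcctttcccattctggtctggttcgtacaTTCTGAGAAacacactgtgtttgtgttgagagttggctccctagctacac
Counted in the same way, the capitals begin at position -1446 and at position -2 of Gfap, at position -96 of Slc1a3 and at position -660 of Fabp7. These are matches of letters, and binding was not measured.

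Each library held between 26549326 and 38388133 reads counted on genes, and the 7 brain libraries 26549326 to 35606374. Levels are given as CPM, the counts of a gene relative to all counts of its library, after TMM scaling of all 21 libraries. The neuronal marker list summed to 8354 to 9590 CPM in the brains and to at most 23.2 CPM in the livers and 155 CPM in the skins. Hepatocyte markers reached at least 202400 CPM in every liver. Keratinocyte markers differed widely between skins, at 12040 CPM in KI 1, 814 CPM in KI 2 and 1325 to 14770 CPM in the WT skins. The brain libraries were not alike in region. Summed choroid plexus and ependymal markers stood at 867 and 948 CPM in the KI brains and at 77.8, 87.6, 360.5, 1075 and 2153 CPM in WT 1 to WT 5. WT 5 also had the highest sum of forebrain transcription factors (564 CPM against 64.4 to 253 CPM in the other 6 brains) and the lowest of hindbrain ones (31.5 CPM against 53.5 to 322 CPM). Its genes deviated from the mean of the 7 brains with an SD of 1.02 on the log2 scale, against 0.391 to 0.502 in the others. Results of the brain are therefore given with and without WT 5, a choice of library made with the data in view.

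In the newborn WT brain the radial glial gene Fabp7 stood far above the other genes examined. Between genes, levels were compared as CPM per kilobase of the longest annotated transcript. Further radial glia genes ran from 1.16 (Gli3) to 779.5 (Dbi), and further astrocyte genes from 3.59 (Ntsr2) to 607 (Apoe). The levels of radial glia and astrocyte genes thus overlapped, and Fabp7 does not stand for its stage. Fabp7, which encodes the brain lipid-binding protein that carries fatty acids in radial glia, stood at 2736 ± 655 CPM per kilobase (SD, n = 5), the second highest of 20824 genes. Aldoc, the aldolase of brain glycolysis, followed at 101 ± 26.2. Glul, the glutamine synthetase that turns glutamate into glutamine, stood at 82.7 ± 2.79, and the glutamate transporter Slc1a3 (GLAST) at 73.7 ± 22.9. Below them lay the gap junction gene Gja1 (connexin 43) at 44.2 ± 12.4 and Aldh1l1, a folate enzyme used as a pan-astrocyte marker, at 26.8 ± 1.73. The lowest 4 were genes of the mature astrocyte. The water channel Aqp4 stood at 22.5 ± 11.3 CPM per kilobase, the filament gene Gfap at 14.6 ± 2.62, the glutamate transporter Slc1a2 (GLT-1) at 13.7 ± 3.36 and the calcium-binding protein gene S100b at 10.7 ± 3.65. S100b held rank 5460 of the 20824 genes.

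Much of this order was not resolved between neighbours. Only Fabp7 over Aldoc and Gja1 over Aldh1l1 had ranges that did not overlap among the 5 WT brains. Aldoc exceeded Glul in 4 of 5 mice, Glul exceeded Slc1a3 in 3, and Slc1a3 exceeded Gja1 in 4. Aldh1l1 exceeded Aqp4 in 3 of 5 mice, Aqp4 exceeded Gfap in 4, Gfap exceeded Slc1a2 in 3, and Slc1a2 exceeded S100b in 4. Without strand information, reads of overlapping genes on the opposite strand cannot be told apart, and this touches Aldh1l1 (605 exon bases shared with Gm15756), Slc1a2 (189 with Gm13872) and Glul (67 with 5830403L16Rik).

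**Figure D1:**
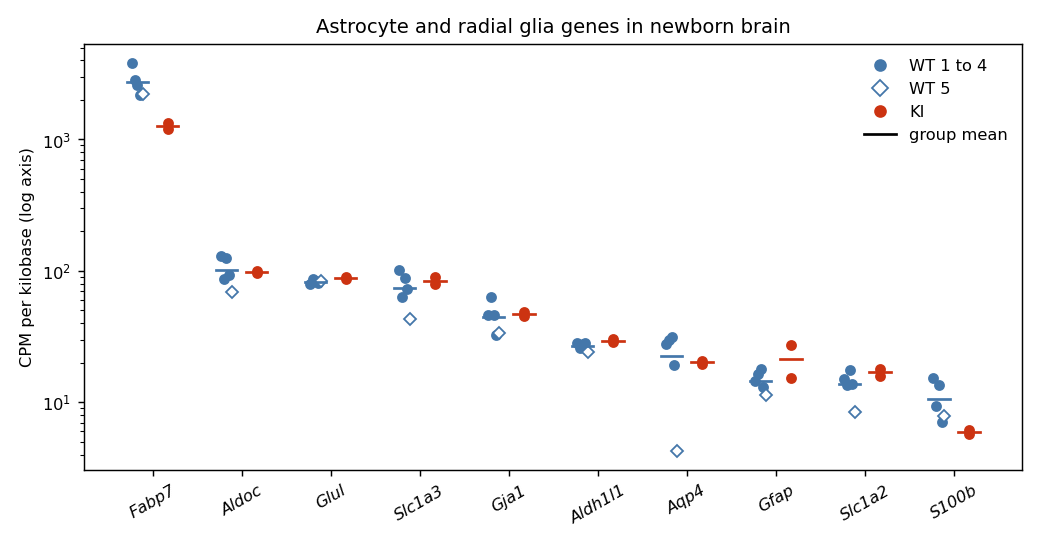
Level of each gene in the 7 brain libraries, in CPM per kilobase of the longest transcript on a log axis, with genes ordered by their WT mean. Filled blue points are WT 1 to WT 4, open diamonds WT 5, red points the 2 KI brains and lines the group means. Fabp7 lies well above the other 9 genes in every brain, with the Aqp4 value of WT 5 far below the rest.

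The members differed widely in how much they varied between WT brains. Glul was the steadiest, at 222, 241, 232, 224 and 236 CPM in WT 1 to WT 5, a coefficient of variation (CV) of 3.37%. Among genes tested at 10 CPM or more, 0.617% had a smaller CV, and their median was 17.7%. Aldh1l1 was also steady, at 118, 108, 115, 117 and 101 CPM, a CV of 6.44%. The enzymes of glutamate and folate metabolism were thus the members that varied least across the 5 brains.

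Aqp4 was the most variable, at 143, 153, 161, 98.5 and 21.8 CPM in WT 1 to WT 5, a CV of 49.9%. The value of WT 5 was the lowest by far, and without that brain the CV was 20.1%. S100b (CV 34.3%), Slc1a3 (31.0%), Gja1 (28.0%), Aldoc (25.9%), Slc1a2 (24.6%) and Fabp7 (23.9%) lay in between, and Gfap (17.9%) was close to the median gene. Without WT 5 the CV of Slc1a2 came to 12.9%, that of Aldh1l1 to 4.00% and that of Glul to 3.69%, while that of S100b (33.4%) and that of Fabp7 (23.7%) kept nearly their full size. The median over genes at 10 CPM or more was then 9.19%, so 8 of the 10 genes lay above it. The spread of Fabp7 rested on WT 1: without it the CV was 13.02%. The regional marker sums given above also differed between these brains, and their part in the spread was not tested.

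**Figure D2:**
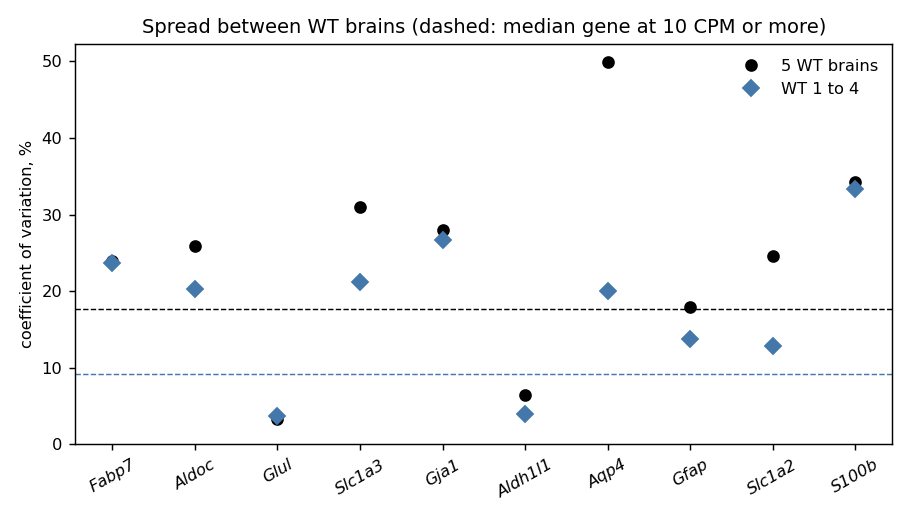
Coefficient of variation of each gene's CPM, in percent, over the 5 WT brains (black points) and over WT 1 to WT 4 (blue diamonds). The dashed lines show the median gene at 10 CPM or more for each set, 17.7% and 9.19%. Aqp4 drops from 49.9% to 20.1% without WT 5, and Glul and Aldh1l1 lie below both lines.

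Against the other tissues, 8 of the 10 genes were higher in WT brain than in WT liver and 2 were lower, and the same counts held against WT skin. All 20 differences passed the test (edgeR's quasi-likelihood test, Benjamini-Hochberg adjusted p under 0.1 over all genes). The brain differed so much from these tissues that 44.6% of 16220 genes were called higher and 39.9% lower than in liver, and 39.6% of 16326 higher and 39.0% lower than in skin. The members' median log2 difference was 3.69 against liver, where the median of all genes tested was 0.10, and 3.23 against skin, where it was 0.01.

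Fabp7 was the most brain-restricted member. It stood at 1929 to 3340 CPM (median 2297) in the WT brains, at 0.360 to 1.52 CPM in the WT livers and at 2.17 to 6.63 CPM in the WT skins. Its log2 differences were 11.11 against liver (standard error, SE, 0.395) and 9.21 against skin (SE 0.412). The glutamate transporter Slc1a2 was similarly rare outside the brain, with log2 differences of 6.58 and 7.0. Its partner Slc1a3 was nearly absent from liver (at most 0.803 CPM) but stood at 25.7 to 98.7 CPM in skin. Accordingly the log2 difference of Slc1a3 was 9.26 against liver and 2.23 against skin.

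Gfap stood at 29.9 to 47.4 CPM in the WT brains, at 11.6 to 17.9 CPM in the WT livers and at 0.155 to 0.584 CPM in the WT skins. The log2 difference of Gfap was thus 1.5 against liver (SE 0.164), the smallest of the 8 rises, and 6.87 against skin (SE 0.349). Hepatic stellate cells, which are known to express Gfap, are one of the cell types of the liver, and no cell type was resolved in these bulk libraries. Aqp4 (log2 differences 6.31 and 7.90) and Aldoc (1.98 and 4.24) were higher in brain than in both tissues. S100b was at 0 to 37 counts in the WT livers, with a log2 difference of 4.41, but its skin range (3.41 to 12.5 CPM) overlapped its brain range (10.6 to 22.8 CPM). The skin difference of S100b was 1.20 on the log2 scale (SE 0.337, edgeR adjusted p = 0.00687).

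Some of these markers were higher outside the brain. Aldh1l1 was at 356 to 492 CPM in WT liver and fell to 101 to 118 CPM in WT brain, a log2 difference of -1.86 (SE 0.108). Glul, which perivenous hepatocytes use to bind ammonia, was lower in brain than in liver by a log2 difference of -1.31 (SE 0.157). Against skin its log2 difference was -0.50 (SE 0.146, edgeR adjusted p = 0.00889). Gja1 was highest in skin, at 318.5 to 554 CPM against 101 to 196 CPM in brain, a log2 difference of -1.63 (SE 0.225). In liver Gja1 was at 8.71 to 24.1 CPM. Glul, Aldh1l1 and Gja1 were thus each higher in at least 1 of these tissues than in the brain.

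**Figure D3:**
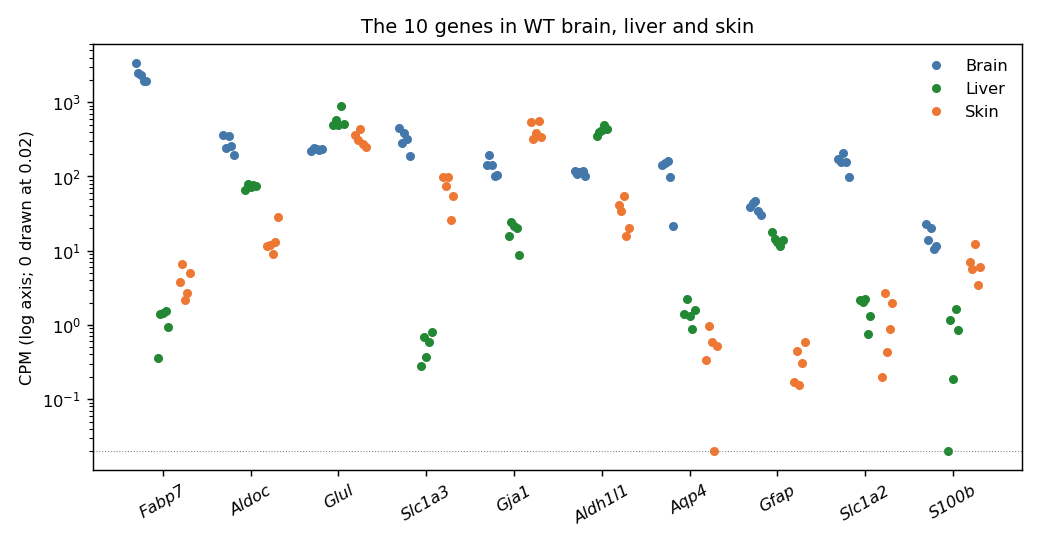
CPM of each gene in the 5 WT brains (blue), livers (green) and skins (orange) on a log axis, 1 point per library. Points on the dotted line are libraries with 0 counts, drawn at 0.02. Fabp7, Slc1a2 and Aqp4 are separated from both tissues, Glul and Aldh1l1 are highest in liver, and Gja1 is highest in skin.

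In the brain, no member was called between KI and WT mice, and neither was any other gene: 0 of 16322 genes, 0%, passed an adjusted p under 0.1 in edgeR. Before adjustment 2 of the 10 members, Fabp7 and S100b, had a lower level in KI brains at a p under 0.05, as did 7.81% of all genes, and no member had a higher one (2.80% of all genes). On the scaling of that fit, which used the 7 brains alone, the same 2 genes were the members whose KI and WT libraries did not overlap. Among all genes 15.8% were lower in both KI brains than in every WT brain and 11.2% higher. DESeq2, the tool of the study's volcano plots, called 1 member, Fabp7, and 3.03% of genes lower and 0.370% higher. The members' median log2 difference was 0.01, and that of all genes tested was -0.02. In bulk RNA, fewer cells of a type and less RNA per cell cannot be told apart.

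Fabp7 stood at 1176 and 1051 CPM in the KI brains and at 3340, 2516, 2297, 1929 and 1955 CPM in WT 1 to WT 5. No WT brain came as low as either KI brain, and the fitted level in KI was 0.436 of that in WT. Fitted over all 7 brains, Fabp7 differed by -1.20 on the log2 scale (SE 0.232, edgeR adjusted p = 0.255). Without WT 5 Fabp7 was called, with a log2 difference of -1.24 (SE 0.1996, edgeR adjusted p = 0.0363). With DESeq2 on all 7 brains the adjusted p of Fabp7 was 0.00159.

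S100b stood at 8.50 and 9.14 CPM in the KI brains and at 22.8, 13.9, 20.2, 10.6 and 11.6 CPM in WT 1 to WT 5. The KI values lay just below WT 4 and WT 5 and far below WT 1 and WT 3. For S100b the log2 difference was -0.93 (SE 0.341, edgeR adjusted p = 0.400). Without WT 5 it was -0.997 (SE 0.30, edgeR adjusted p = 0.0951), which passed the threshold. Without WT 5, 2 of the 10 members were thus called lower and none higher, beside 6.32% of 16222 genes called lower and 4.14% higher.

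Both genes have short transcripts, and in the brain the difference between genotypes followed transcript length. The median log2 difference was -0.67 for 896 genes with a longest transcript of at most 1 kb, of which 90.3% lay below 0. It was -0.29 for genes of 1 to 2 kb, -0.03 for 2 to 4 kb and 0.17 for longer ones. Without WT 5 the medians of these 4 classes were -0.46, -0.14, 0.01 and 0.12. Per library, genes of at most 1 kb deviated from the 7-brain mean by a median of -0.41 and -0.49 (log2) in the KI brains and by 0.28, 0.12, -0.06, -0.03 and 0.80 in WT 1 to WT 5.

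The transcript of Fabp7 is 0.88 kb long, and 102 of the 896 genes in its length class (11.4%) had a lower log2 difference. The transcript of S100b is 1.48 kb long, and 169 of 2932 genes in its class (5.76%) had a lower one. Without WT 5 these counts were 51 of 875 genes (5.83%) for Fabp7 and 89 of 2898 (3.07%) for S100b. After offsets for gene length were added to the fit, the log2 difference of Fabp7 was -0.75 (SE 0.267, edgeR adjusted p = 0.536) and that of S100b was -0.74 (SE 0.377, edgeR adjusted p = 0.687). With the offsets and without WT 5, Fabp7 was called at -0.88 (SE 0.147, edgeR adjusted p = 0.0690), and S100b stood at -0.87 (edgeR adjusted p = 0.167). Under that setting 1 of the 10 members was called, beside 3.74% of 14800 genes called lower and 1.30% higher. Both kept a lower level in KI brains under these settings, at a smaller size. The part of transcript length in the remaining difference was not tested.

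**Figure D4:**
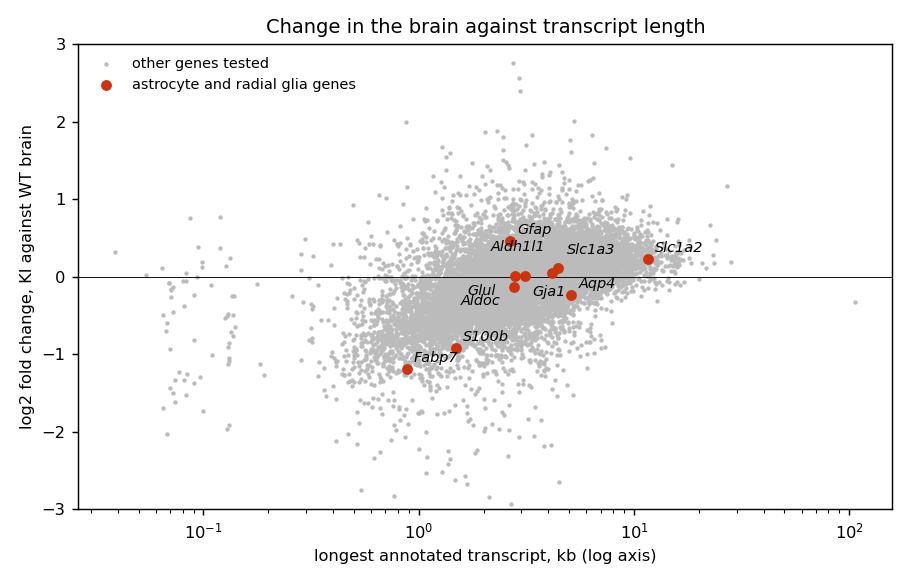
Log2 fold change, KI against WT brain, plotted against the length of the longest annotated transcript (kb, log axis) for the 14881 genes tested that have an annotated length. Grey points are the other genes and red points the 10 members, and 19 genes lie beyond the axis limits of 3 and -3. Short genes lie mostly below 0, and Fabp7 and S100b lie at the lower side of the cloud at their length.

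Gfap, the STAT3 target, differed between the 2 KI brains themselves. It stood at 40.5 CPM in KI 1 and 71.6 CPM in KI 2, and at 38.3, 43.3, 47.4, 34.6 and 29.9 CPM in WT 1 to WT 5. KI 1 lay inside the WT range and KI 2 above all other brains. The log2 difference of Gfap was 0.45 (SE 0.243, edgeR adjusted p = 0.568). KI 2 alone carried it, since the value was -0.02 without KI 2 and 0.83 without KI 1. Length offsets left Gfap at 0.46.

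The genes of glutamate handling differed little between the genotypes and were not called. Slc1a2 stood at 183 and 209 CPM in the KI brains and at 174, 156, 205, 159 and 98.0 CPM in WT 1 to WT 5, so the groups overlapped. Its log2 difference was 0.23 (SE 0.239, edgeR adjusted p = 0.775), and 0.12 without WT 5. Slc1a3 stood at 350.2 and 398 CPM against 453, 279, 391, 322 and 190 CPM, with a log2 difference of 0.11 (SE 0.292) that was -0.01 without WT 5. Glul stood at 244 and 249.8 CPM against 222 to 241 CPM in WT, just apart on the scaling of all 21 libraries. Scaled over the 7 brains alone the groups of Glul overlapped, and the log2 difference was 0.01 (SE 0.101). For Glul the error is small, while for both transporters it leaves room for a moderate difference in either direction.

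The remaining members were not called by edgeR either. Aqp4 stood at 106 and 100.2 CPM in the KI brains, between WT 4 and the higher WT brains. Its log2 difference was -0.24 (SE 0.603, edgeR adjusted p = 0.909) with WT 5 and -0.49 (SE 0.169, edgeR adjusted p = 0.133) without it. DESeq2 without WT 5 called Aqp4 lower (adjusted p = 0.0226), 1 of 3 members it called, beside 11.3% of 13885 genes called lower and 7.25% higher. Gja1 stood at 141 and 149.9 CPM against 101 to 196 CPM, with a log2 difference of 0.00 (SE 0.242). Aldoc, at 269 and 277 CPM against 193 to 364 CPM, had a log2 difference of -0.13 (SE 0.243). Aldh1l1, at 127 and 119 CPM against 101 to 118 CPM, had one of 0.05 (SE 0.113), and its groups, apart in these CPM, overlapped on the scaling of the 7 brains.

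**Figure D5:**
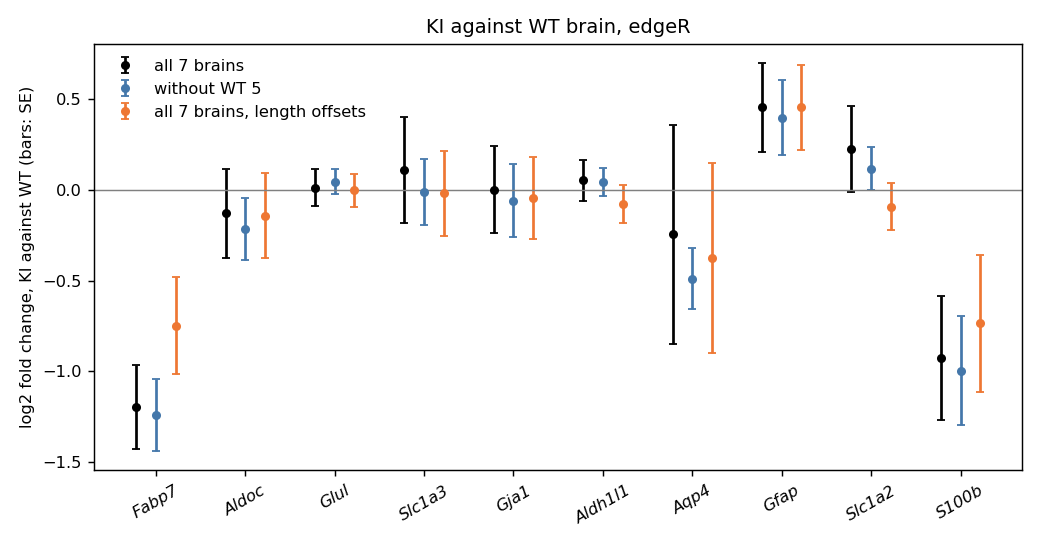
Log2 fold change, KI against WT brain, of each member from edgeR with all 7 brains (black), without WT 5 (blue) and with gene length offsets (orange), and bars of 1 SE. Fabp7 and S100b lie below 0 in all 3 fits, at -1.20 and -0.93 with all brains. Gfap lies above 0 in all 3, and the large bar of Aqp4 shrinks without WT 5.

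With all 7 brains edgeR called none of the other genes of these cell types, and DESeq2 called 1, the radial glia gene Dbi. Of 25 further astrocyte genes, all tested, none was called by edgeR, none had a p under 0.05, and the median log2 difference was -0.02. The best expressed of them per kilobase were Apoe, the main lipid carrier of the brain (log2 difference -0.33, SE 0.164), Sparcl1, a secreted synaptogenic protein (-0.02), and Mt3, a brain metallothionein (-0.75, SE 0.442). Without WT 5 the values were -0.22, -0.13 and -0.37, and with length offsets -0.066, -0.065 and -0.020. Of 20 further radial glia and progenitor genes none was called by edgeR, 2 had a p under 0.05 in each direction (2.80% of all genes higher and 7.81% lower), and the median was 0.12. Vim, the intermediate filament of radial glia, stood at 0.07, and at 0.30 without WT 5 (edgeR adjusted p = 0.114), where DESeq2 called it higher (adjusted p = 0.0548). Mfge8, a secreted glycoprotein, stood at 0.05, and at 0.13 without WT 5. Without WT 5, edgeR called 1 astrocyte gene higher (Nfix), 3 radial glia genes higher (Nes, Notch1 and Msi1) and 1 lower (Dbi), named after their values were seen. In that fit 4.14% of 16222 genes were called higher and 6.32% lower. The longest transcripts are 5.48 kb for Nfix, 6.13 kb for Nes, 9.49 kb for Notch1, 3.13 kb for Msi1 and 0.66 kb for Dbi. The part of length in these calls was not tested.

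The summed level of the 25 astrocyte genes was 3686 and 3934 CPM in the KI brains and 3319 to 3936 CPM in the WT brains. For the 20 radial glia genes it was 2200 and 2384 CPM against 2157 to 2562 CPM. The sums of the companion lists thus overlapped between genotypes, though a sum can hide genes that differ in opposite directions. The sum of the 10 members did not overlap, at 2635 to 2645 CPM in the KI brains and 2940 to 5019 CPM in the WT brains. Fabp7 is the most abundant gene in that sum, at 1051 to 1176 CPM in the KI brains and 1929 to 3340 CPM in the WT brains. The sum therefore follows Fabp7 and does not speak for the members as a group.

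The radial glia list did contain a gene much like Fabp7, named here after its values were seen. Dbi, which encodes the acyl-CoA-binding protein, stood at 237.5 and 207 CPM in the KI brains and at 655, 445, 447, 376 and 649 CPM in WT 1 to WT 5. Its log2 difference was -1.30 (SE 0.260, edgeR adjusted p = 0.255), and it was called without WT 5 (-1.18, edgeR adjusted p = 0.0363). With DESeq2 on all 7 brains the adjusted p of Dbi was 0.00174. With length offsets Dbi stood at -0.69 (edgeR adjusted p = 0.491). With the offsets and without WT 5 Dbi was called at -0.70 (edgeR adjusted p = 0.0747), beside 3.74% of 14800 genes called lower.

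No gene of the gliogenic pathway was called by edgeR with all 7 brains. Of 17 genes of this pathway 14 were tested in the brain, 2 had a p under 0.05, both higher in KI (2.80% of all genes), and the median log2 difference was 0.33, or 0.13 with length offsets. Both KI brains lay above every WT brain for 6 of the 14, against 11.2% of all genes, and for none did both lie below. Stat3 stood at 52.3 and 58.3 CPM in the KI brains and at 37.6 to 43.96 CPM in the WT brains. Its log2 difference was 0.33 (SE 0.123, edgeR adjusted p = 0.408), it was called without WT 5 (0.32, edgeR adjusted p = 0.0710), and with length offsets it was 0.07. With the offsets and without WT 5 Stat3 was not called (0.16, edgeR adjusted p = 0.292).

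Cntfr, the receptor of ciliary neurotrophic factor, stood at 74.7 CPM in both KI brains and at 51.3 to 61.7 CPM in the WT brains. The log2 difference of Cntfr was 0.32 (SE 0.116, edgeR adjusted p = 0.391), 0.33 and called without WT 5 (edgeR adjusted p = 0.0612), and 0.42 with length offsets. With the offsets and without WT 5 it was 0.37 (edgeR adjusted p = 0.0797). Socs3, the feedback inhibitor that STAT3 induces, stood at 6.92 and 7.55 CPM against 3.14 to 6.15 CPM, a log2 difference of 0.40 (SE 0.293, edgeR adjusted p = 0.678). Lifr, the receptor of leukemia inhibitory factor, overlapped between genotypes (log2 difference -0.18). So did the edited gene Jak1 (0.21, edgeR adjusted p = 0.719) and the gp130 gene Il6st (0.37) on the scaling of the 7 brains, whereas in CPM scaled over all 21 libraries both KI brains lay above the WT range. Jak1 stood there at 161 and 156 CPM against 90.9 to 151 CPM in WT, and Il6st at 65.2 and 70.4 CPM against 26.3 to 62.8 CPM. Of 20 genes raised in reactive astrocytes 17 were tested, none was called by edgeR, 3 higher and 1 lower had a p under 0.05, against 2.80% and 7.81% of all genes, and the median was 0.07. The 3 higher ones, named after their values were seen, were Steap4 (log2 difference 1.70, edgeR adjusted p = 0.372), Gbp2 (1.12, edgeR adjusted p = 0.365) and Cd109 (0.67, edgeR adjusted p = 0.430). The lower one, S100a10 (-0.94, edgeR adjusted p = 0.277), was called by DESeq2 on all 7 brains and by edgeR without WT 5.

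In liver and skin no member was called between KI and WT mice by edgeR either, beside 5.57% of 14966 genes in liver and 0.0247% of 16163 in skin. DESeq2 called 1 member in liver, Gja1, beside 9.25% of 15806 genes, and none in skin, beside 0.700% of 15561. In liver 1 member had a higher and 2 had a lower level in KI at a p under 0.05, against 9.49% and 8.41% of all genes, and in skin none did (4.57% of all genes in either direction).

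Gfap was lower in both KI livers (10.1 and 9.75 CPM) than in every WT liver (17.9, 14.4, 13.0, 11.6 and 14.1 CPM). Its liver log2 difference was -0.50 (SE 0.184, edgeR adjusted p = 0.201), and it passed the threshold without WT 4 (-0.57, edgeR adjusted p = 0.0914). Gja1 was higher in both KI livers (40.1 and 31.4 CPM) than in every WT liver (16.0, 24.1, 21.7, 20.3 and 8.71 CPM). For Gja1 the log2 difference was 0.995 (SE 0.306, edgeR adjusted p = 0.129), and it passed without WT 5 (0.83, edgeR adjusted p = 0.0507). Each of these passes came from a fit with a single mouse left out, and edgeR called neither gene with every liver kept. The share of all genes called in those fits is not given here. Among all genes 11.3% lay lower in both KI livers than in every WT liver and 13.0% higher.

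S100b had only 1 and 2 counts in the KI livers against 0, 32, 4, 37 and 20 in the WT livers, and its groups overlapped. Glul stood at 565 and 448 CPM against 497 to 892 CPM. The summed perivenous hepatocyte list, which holds Glul, was 977 and 893 CPM in the KI livers and 1396 to 1877 CPM in the WT livers. In that list Cyp2e1 (log2 difference -1.52) and Axin2 (-2.01) were called lower by edgeR, beside 5.57% of all genes called in either direction. Glul itself was not called (-0.22, edgeR adjusted p = 0.663). Neither were Tbx3 (-0.80), Rhbg (-0.57), Oat (-0.09), Lgr5 (0.48) and Slc1a2 (0.24). In the same livers Stat3 (log2 difference 0.43, edgeR adjusted p = 0.0377) and Socs3 (2.09, edgeR adjusted p = 0.0120) were called higher in KI. Gfap was not called in these livers, and a link between its values and those of Stat3 and Socs3 was not tested.

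In skin Gfap was counted 5 and 3 times in the KI libraries and 6 to 19 times in the WT libraries, so that both KI skins lay below every WT skin, as for 4.84% of all genes. Glul had the largest skin values in KI 2 (577.5 CPM), with 364 CPM in KI 1 and 249 to 437 CPM in WT. Its skin log2 difference was 0.50 (SE 0.254, edgeR adjusted p = 0.999), and 0.14 without KI 2. Glul and the other 8 members overlapped between genotypes in skin.

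Whether the genotype difference itself depended on the tissue was tested as an interaction. Between brain and liver no member passed in edgeR, beside 2.65% of 17420 genes. The members at a p under 0.05 were Gfap, Gja1 and Fabp7, 3 of 10 against 14.9% of all genes. For Gfap the KI difference was 0.96 higher in brain than in liver on the log2 scale (SE 0.323, edgeR adjusted p = 0.176). Among the members DESeq2 called Gfap alone (1.03, adjusted p = 0.0667), beside 7.64% of 16396 genes. Without KI 2 the Gfap value was 0.48. The corresponding values were -0.98 for Gja1 (edgeR adjusted p = 0.310) and -1.19 for Fabp7 (edgeR adjusted p = 0.292), which is nearly unexpressed in liver. Of the companions, Dbi passed at -1.45 (SE 0.314, edgeR adjusted p = 0.0526).

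Between brain and skin no gene passed in edgeR, 0% of 17504, and DESeq2 called no member, beside 0.0671% of 20874 genes. Gfap alone among the members had a p under 0.05, at 2.01 (SE 0.683, edgeR adjusted p = 0.844), with the few skin counts given above. Among all genes 5.74% had such a p.

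The members did not vary as 1 group across the 7 brains. The following Pearson correlations of log2 CPM describe these 7 libraries, which share their scaling, depth and regional differences. Slc1a3 went with Aldoc (r = 0.913, and 0.876 without WT 5), and S100b with Fabp7 (0.889, and 0.899 without WT 5). Slc1a2 with Aqp4 reached 0.857 over 7 brains and 0.04 without WT 5, so that pair rested on 1 library. Gfap went with Slc1a2 (0.728, and 0.676 without WT 5) and not with Fabp7 (-0.45, and -0.49 without WT 5).

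Among 14236 genes tested at a mean of 1 CPM or more, those most like Gfap over the 7 brains were Nckap1 (r = 0.957), Gtf2i (0.953), Evc (0.946), Wdr46 (0.944) and Ednra (0.932). Those most like Fabp7 were Sar1b (0.998), Ssr4 (0.994), Rpl7 (0.994), Atp5j (0.993) and Gm6251 (0.993). No member was among either 5. The 5 genes nearest to Gfap have transcripts of 2.23 to 4.60 kb, and of those nearest to Fabp7 the 4 with an annotated length have 0.927 to 2.57 kb.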

How the data were processed

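Total RNA of the brain, liver and skin of P0 mice was sequenced in paired ends after TruSeq v2 library preparation, which does not keep strand. According to the study's methods and the submitters' processing notes, reads were adapter-trimmed with an in-house script, aligned to mm9 with TopHat2 and counted with HTSeq. The authors deposited 1 file of unnormalized counts by gene symbol for each library. The annotation, overlap mode and strand setting of the counting are not given in the sources used here. The summary lines for unassigned reads were left out of every test, and 80.5% to 87.6% of uniquely aligned reads were counted on genes.

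Groups were taken from the sample titles. KI and WT were compared within each tissue (2 against 5 mice), WT tissues with each other (5 against 5), and the KI difference between tissues as an interaction. Counts were filtered with filterByExpr, scaled by TMM and fitted in edgeR 4.0.16 (R 4.3.3) by quasi-likelihood, with Benjamini-Hochberg adjustment over all genes tested and a threshold of 0.1. Printed CPM use TMM factors of all 21 libraries, and fitted differences use those of the libraries compared. Transcript lengths (longest transcript) came from GENCODE vM1 on NCBIM37, which held 20824 of the 24391 symbols.

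The members and lists were chosen with earlier results of these data known. Named were all members, the 3 best expressed genes per kilobase of the astrocyte and radial glia lists, 6 genes of the JAK/STAT pathway, any list gene called in the brain (none) and the 5 genes most like Gfap and Fabp7. The alternatives were the size factors and the Wald test of DESeq2 1.42.0, no filter on low counts, a threshold of 0.05, all 21 libraries in 1 fit, offsets from a loess fit on gene length (span 0.3, degree 1), the replicate number as a block and each mouse left out in turn. The length offsets and DESeq2 without WT 5 were added with the data in view, after seeing the data. The edgeR and DESeq2 fits were tested on simulated counts.

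Tissues that share a genotype and a number were taken to come from 1 mouse, since the methods name 7 mice. After group means were removed, such WT libraries correlated across genes with r of 0.03 to 0.13 between brain and liver and of 0.01 to 0.18 between brain and skin. In the labels KI and WT mice share only a number. The main fits between tissues, interactions included, had no term for the mouse and so treated its libraries as independent. The mouse entered only the block alternative and the fits with 1 mouse left out. Plots were drawn with matplotlib 3.10.9 in Python 3.11.15.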

Additional observations from a re-analysis of the deposited data

Results flagged for a closer look

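Aldoc in the skin of WT 5 stood at 28.7 CPM, while the other 4 WT skins lay between 9.14 and 13.1 CPM, a gap too wide for 5 samples of 1 group by Dixon's test at the 95% level. Glul in the liver of WT 4 stood at 892 CPM, while the other 4 WT livers lay between 497 and 584 CPM, by the same test. The 10 genes were examined in 3 tissues, 30 groups of 5 WT libraries, and chance alone gives about 5% such values, so 2 of 30 is near what chance gives. No WT brain value of the 10 genes, the Aqp4 value of WT 5 included, met this test.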

How the results depend on the processing

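The 10 members kept their calls between WT tissues (8 higher and 2 lower in brain, against liver and against skin) under every alternative run, and in skin and between brain and skin 0 were called between genotypes in every one. In the brain 0 genes were called higher and 0 lower by edgeR, against 56 and 458 by DESeq2, 173 and 441 with all 21 libraries in 1 fit, and, added after seeing the data, 193 and 553 with length offsets without WT 5 and 1006 and 1570 with DESeq2 without WT 5. Leaving out 1 mouse gave 0 to 672 higher and 0 to 1026 lower, above 0 only without WT 5. Members called in the brain numbered 0, against 1 by DESeq2, 1 with length offsets without WT 5, 3 with DESeq2 without WT 5 and 0 to 2 with 1 mouse left out. In liver 0 were called, against 1 by DESeq2 and 0 to 1 with 1 mouse left out, and for the brain-liver difference 0, against 1 by DESeq2. The causes were not tested.

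Small brain differences changed sign. With length offsets Aldh1l1 was -0.079, Slc1a2 -0.092, Slc1a3 -0.020, Glul -0.0033 and Gja1 -0.044. With the offsets and without WT 5 the values were -0.044 for Aldh1l1, -0.065 for Slc1a2, -0.11 for Slc1a3, -0.10 for Gja1 and 0.17 for Mt3. DESeq2 without WT 5 gave -0.023 for Slc1a3 and -0.072 for Gja1, and all 21 libraries in 1 fit gave 0.060 for Sparcl1. With 1 mouse left out the ranges were -0.018 to 0.83 for Gfap, -0.012 to 0.28 for Slc1a3, -0.22 to 0.00060 for Aldoc, -0.0078 to 0.053 for Glul, -0.082 to 0.17 for Gja1, -0.13 to 0.092 for Sparcl1, -0.010 to 0.30 for Vim and -0.039 to 0.15 for Mfge8. Fabp7 ranged from -1.26 to -1.03 and S100b from -1.03 to -0.74.

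With the replicate number as a block, KI 1 is set against WT 1 and KI 2 against WT 2. Same-numbered libraries correlated with r of 0.02 and -0.10 in the brain, -0.03 and -0.09 in the liver and 0.20 and 0.04 in the skin. With so few pairs, these values cannot show whether the numbers pair the mice. The block gave 851 genes higher and 1422 lower in the brain, with 3 members called (Fabp7 -1.46, S100b -1.09 and Aqp4 -0.60), -0.0027 for Slc1a3 and -0.27 for Gja1. In liver 2 members were called under the block (Gfap -0.67 and Gja1 0.88). The share of all genes called in that liver fit is not given here. Blocking by mouse changed no call of a member between tissues.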
